A study of Drosophila melanogaster with 2 samples.

Results

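Nuclear genes of the mitochondrial ribosome, 73 in number, were examined as targets of the Drosophila melanogaster protein Psq (pipsqueak), a BTB-domain DNA-binding protein known for binding GAGA-type repeats. Members were all protein-coding genes whose symbol is mRpL or mRpS followed by a digit, 73 of 13945 protein-coding genes on the 6 chromosome arms. Of these, 47 encode proteins of the large subunit (mRpL) and 26 proteins of the small subunit (mRpS). The genes tko and bonsai, which also encode mitochondrial ribosomal proteins, have other symbols and are given apart. The rule uses the symbol alone, but this group of genes was proposed with results of these data known.

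Psq binding had been mapped by chromatin immunoprecipitation and sequencing in a single group of 2 biological replicates, numbered 3 and 4, with no second condition. Each replicate was a pool of whole male and female embryos aged 0 to 24 h from a transgenic line (psq-GFP) that stably carries psq fused to GFP at the C terminus. The labels describe an insertion targeting psq and name no promoter for the fusion. The antibody recognised GFP, so the lists show where the tagged protein was recovered in a mixture of all embryonic cells and stages. No expression was measured, so the stage and tissue could not be checked against marker genes.

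Mitochondrial ribosomes translate the few proteins encoded by mitochondrial DNA, which are core subunits of the respiratory chain and the ATP synthase. Their ribosomal RNAs come from mitochondrial DNA, but all of their proteins are encoded in the nucleus, translated in the cytosol and imported. Many of them descend from bacterial ribosomal proteins and keep the bacterial number, whereas others, such as mRpL37, mRpL41, mRpL43, mRpS23, mRpS26 and mRpS31, have no bacterial counterpart.

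The DNA under 6 of the strongest summits outside UTRs is shown first because the results turn on where these summits lie. The stronger summits of mRpL41 and mRpL43 are on an arm whose sequence is not printed here. Each stretch is 121 bases centred on the summit, read 5′ to 3′ on the strand of the named gene, from the RefSeq dm6 genome. Capitals mark exact matches, on either strand, to the 7 motifs searched: GAGAG, its longer form GAGAGAG (which contains the shorter), the DNA replication-related element (DRE) TATCGATA, the core of promoter motif 1, which is GGTCACACT, the E-box CAGCTG, a further E-box, CACGTG, and the TATA box in the form TATAAA.

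mRpS10, chr3R:15229471-15229591, plus strand: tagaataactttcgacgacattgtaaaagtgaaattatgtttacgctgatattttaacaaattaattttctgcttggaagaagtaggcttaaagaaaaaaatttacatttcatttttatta
mRpS21, chr3R:13382672-13382792, minus strand: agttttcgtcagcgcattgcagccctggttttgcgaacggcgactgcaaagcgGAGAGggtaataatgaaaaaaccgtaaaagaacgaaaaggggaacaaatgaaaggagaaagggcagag
mRpS23, chr2L:13835369-13835489, minus strand: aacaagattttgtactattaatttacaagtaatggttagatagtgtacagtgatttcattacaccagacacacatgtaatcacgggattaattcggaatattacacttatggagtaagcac
mRpS2, chr2L:4850530-4850650, minus strand: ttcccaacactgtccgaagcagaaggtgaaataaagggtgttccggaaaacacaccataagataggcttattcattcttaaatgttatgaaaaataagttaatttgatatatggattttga
mRpL24, chr2L:4945457-4945577, minus strand: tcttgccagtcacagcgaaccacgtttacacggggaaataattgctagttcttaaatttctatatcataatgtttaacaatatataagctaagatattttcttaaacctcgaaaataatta
mRpL20, chr3L:13018060-13018180, minus strand: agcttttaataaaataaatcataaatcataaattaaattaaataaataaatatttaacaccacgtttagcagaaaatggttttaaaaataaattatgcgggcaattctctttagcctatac

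Among these 6 stretches, GAGAG occurred only at mRpS21, and the other 5 held none of the 7 motifs. These 6 do not stand for all of the strongest summits. The stretch at mRpL23 (score 371), left out because it lies in a 5′ UTR, held GAGAG, the second E-box and the TATA box. In a wider window, within 100 bp of the summit, mRpL43 (559) held the longer form of GAGAG and the TATA box. Of the 6 genes printed, mRpS2 held the E-box CAGCTG and the TATA box in that wider window, and mRpL24 held CAGCTG. In that window mRpL41 (597) held none of the 7 motifs. The stretch at mRpS10, under the strongest summit of any mitochondrial ribosomal protein gene, was 24.0% G and C, and that at mRpL20 was 21.5%. A match or its absence describes these letters in the window searched and says nothing of what binds there.

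A gene was counted as bound when the summit of a peak that passed the authors' irreproducible discovery rate (IDR) selection lay within 1000 bp of one of its transcription start sites (TSSs). By this rule 21 of the 73 mitochondrial ribosomal protein genes were bound, or 28.8% (95% Wilson interval 19.7 to 40.0%), against 2265 of all 13945 protein-coding genes, or 16.2%. The share among members was 1.78 times that among the other protein-coding genes. Intervals of shares given here cover counting error only, and neighbouring genes can share a summit, so genes are not independent observations. No test was made between the shares, because of how the group was proposed. Both subunits contributed: 9 of 26 small-subunit genes (34.6%, 19.4 to 53.8%) and 12 of 47 large-subunit genes (25.5%, 15.3 to 39.5%) were bound, with intervals that overlap widely. By arm, 7 of 17 members were bound on 3L, against 18.4% of all protein-coding genes there, and 1 of 11 on X, against 13.7%. On the other arms 4 of 12 were bound on 2L, against 16.0%, 3 of 12 on 2R, against 15.2%, and 6 of 21 on 3R, against 17.4%.

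Scores in the lists are on a scale that the sources do not state, and are used only to rank peaks within 1 list. The strongest summits of the 21 bound genes scored 73.6 at the lowest, 107 in the median and 611 at the highest in the pooled list. The median over all bound protein-coding genes was 116, and the lowest score in the IDR set was 72.5. The members ranked from 40 to 2933 among the pooled peaks, while the highest score of any gene was 2011.

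**Figure D1:**
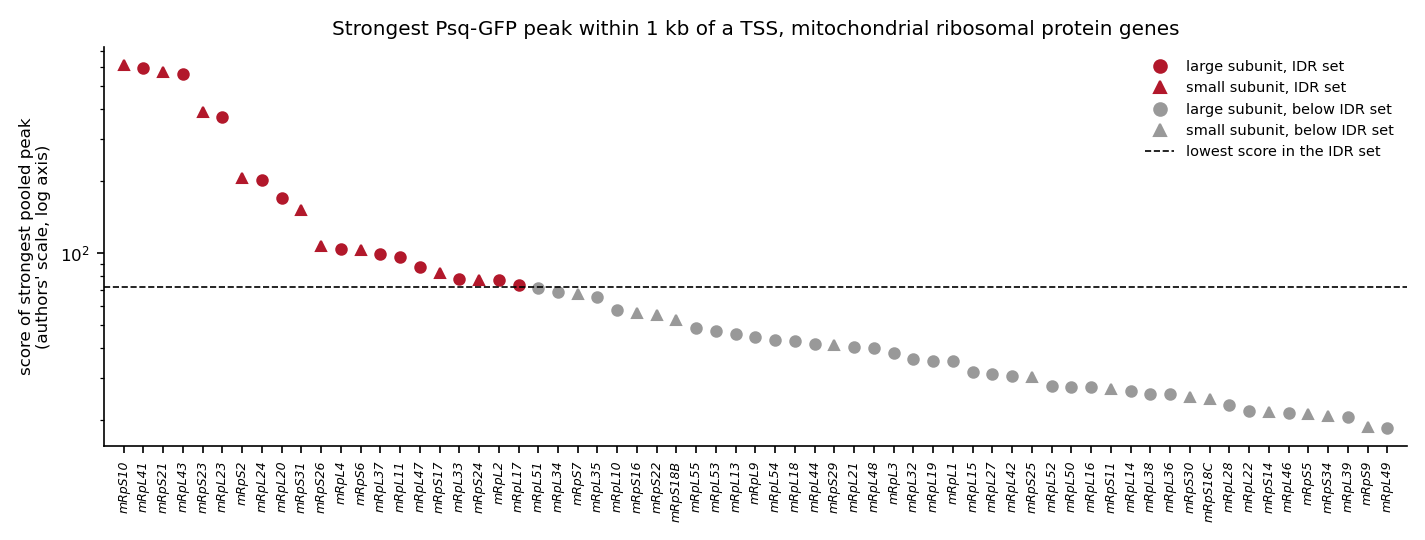
Score of the strongest pooled peak within 1000 bp of a TSS (log axis, authors' scale) for the 65 mitochondrial ribosomal protein genes that had one, in falling order. Circles are large-subunit and triangles small-subunit genes, red marks the 21 genes in the IDR set, and the dashed line is its lowest score, 72.5. The first 6 genes stand at 371 or above, apart from the rest, which start at 207 with mRpS2.

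Of the small-subunit genes, mRpS10 had the strongest summit. Its protein, counterpart of bacterial S10, lies in the head of the small subunit. The peak (3R, 15229355 to 15229699) scored 319 in the list of replicate 3 and 291 in that of replicate 4, ranks 31 and 64 of 30000, and 611 in the pooled list. The summit lay 134 bp upstream of mRpS10 and 123 bp from Art3, which encodes a protein arginine methyltransferase on the other strand.

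The mRpS21 peak (3R, 13382548 to 13382945) scored 251 in replicate 3 and 328 in replicate 4, ranks 59 and 44. Its pooled score was 574, but the summit was 923 bp upstream of mRpS21, inside an intron of Droj2, a DnaJ-type chaperone gene with a TSS 90 bp away. With mRpL2, at 942 bp, mRpS21 was the member just inside the limit of 1000 bp.

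The mRpS23 peak (2L, 13835309 to 13835610) scored 206 in replicate 3 and 189 in replicate 4, and 389 in the pooled list, at 357 bp upstream of mRpS23 and 135 bp from CenG1A, which encodes an Arf GTPase-activating protein. The mRpS2 peak (2L, 4850513 to 4850650) scored 91.8 in replicate 3 and 110 in replicate 4, and 207 in the pooled list. Its summit was 171 bp upstream of mRpS2 and 51 bp from Mon1, which encodes a subunit of a Rab7 exchange factor. These 4 small-subunit peaks ranked 513 or better in each replicate's list.

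The other 5 small-subunit genes were weaker. mRpS31 reached a pooled score of 152 through a summit in the 5′ UTR of its neighbour hzg, 681 bp upstream of mRpS31. mRpS26 had 2 IDR summits in overlapping intervals. The stronger (107) lay 270 bp upstream of mRpS26 and 160 bp from CG13698, and the other (80.4) lay 69 bp upstream of mRpS26. mRpS6, counterpart of bacterial S6, scored 103 with a summit 158 bp upstream, nearer to it than to Cip4, an F-BAR protein gene at 290 bp. mRpS17 (82.7) shared its summit with Nop60B, the gene of the pseudouridine synthase of box H/ACA particles, at 108 bp. mRpS24 (77.0) shared its summit with Apc2, a gene of the adenomatous polyposis coli family, at 174 bp.

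Of the large-subunit genes, mRpL41 and mRpL43 had the strongest summits, both on 2R and both encoding proteins without a bacterial counterpart. The mRpL41 peak (15217591 to 15217922) scored 303 in replicate 3 and 295 in replicate 4, and 597 in the pooled list, with its summit 139 bp upstream of mRpL41 and 623 bp from CG8079. Among the 4 strongest members it was the only one whose strongest summit lay nearer to the mitochondrial ribosomal protein gene than to its neighbour. The mRpL43 peak (23697685 to 23698057) scored 246 in replicate 3 and 323 in replicate 4, and 559 in the pooled list, with its summit 212 bp upstream and 69 bp from CG30183. A second summit in an overlapping interval scored 282 and lay 13 bp upstream of mRpL43.

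The mRpL23 peak (3L, 2373462 to 2373754) scored 187 in replicate 3 and 182 in replicate 4, and 371 in the pooled list. It was the only one of the 21 strongest summits downstream of the nearest TSS of its member. It lay in the 5′ UTR of mRpL23, 31 bp from the nearest of 3 TSSs of this gene. The protein lies at the exit of the peptide tunnel in bacterial ribosomes. The mRpL24 peak (2L, 4945414 to 4945608) scored 94.4 in replicate 3 and 108 in replicate 4, and 202 in the pooled list. It lay 156 bp upstream of mRpL24 and 62 bp from betaggt-I, which encodes the beta subunit of geranylgeranyl transferase type I. mRpL20 followed at 170, 253 bp upstream and 146 bp from Icmt, which encodes isoprenylcysteine carboxyl methyltransferase.

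The remaining 7 large-subunit genes scored from 73.6 to 104. mRpL4 (104) and mRpL47 (87.8) had the summit nearest to their own TSS, at 94 and 40 bp upstream. At mRpL37 (99.0) the summit lay 162 bp upstream. At mRpL11 (96.4) the summit fell in the 5′ UTR of HtrA2, a gene of a mitochondrial serine protease, and at mRpL33 (77.6) in that of norpA, the phospholipase C gene of phototransduction. At mRpL2 (76.9), counterpart of the bacterial protein beside the peptidyl transferase centre, it fell in an intron of the forkhead gene FoxK. mRpL17 (73.6) was the weakest, 337 bp upstream and 62 bp from Tudor-SN.

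The scores of these summits ranked alike in the lists of replicates 3 and 4, from which the IDR selection had itself been derived. All 21 had an overlapping peak in both replicates' lists, and their scores in the lists of replicates 3 and 4 had a Spearman correlation of 0.897 over the 21 peaks, given as a description. Of all 2999 IDR peaks, 2994 were found in both lists, and over these the correlation was 0.735. Presence in both lists thus goes with the selection and is no separate support for the members. The summit in the replicate's own list lay a median of 8 bp (replicate 3) and 2 bp (replicate 4) from the pooled summit. When only the 2999 strongest peaks of each replicate were kept, 17 of 21 stayed in both lists, 19 in replicate 3 and 18 in replicate 4. The 2 with the lowest ranks were mRpL17, with scores of 37.9 in replicate 3 and 27.7 in replicate 4 (ranks 2715 and 5646), and mRpL33, with 31.2 in replicate 3 and 48.1 in replicate 4 (ranks 3769 and 2197).

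**Figure D2:**
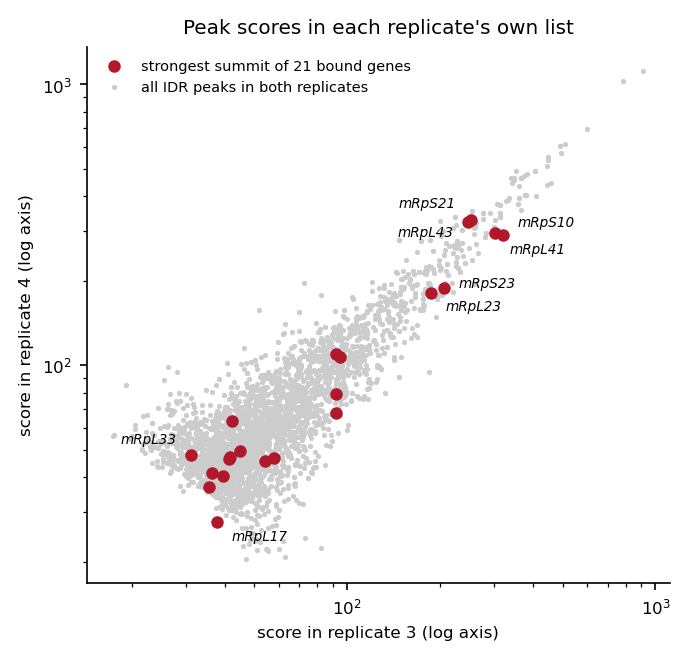
Score of each IDR peak in the list of replicate 3 (x axis) and of replicate 4 (y axis), both log axes on the authors' scale. Red points are the strongest summits of the 21 bound mitochondrial ribosomal protein genes and grey points all IDR peaks found in both lists. The red points run from mRpL17 and mRpL33 to mRpS10 and mRpL41, at 319 and 303 in replicate 3, along the band of the grey points.

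Most of these genes stand back to back with another gene, and at 15 of the 21 bound genes the strongest summit lay in the DNA between the pair. A divergent partner was taken as a protein-coding gene on the other strand whose TSS lies upstream within 1000 bp. Such a partner was present at 58 of the 73 members (79.5%) and at 5052 of all 13945 protein-coding genes (36.2%). It was present at all 21 bound members, against 64.5% of all bound protein-coding genes. In the bound members the TSS-to-TSS distance was 24 to 793 bp with a median of 395 bp. A partner was also present at 37 of the 52 members not bound (71.2%), with a median of 242 bp. All 21 partners were also counted as bound, which the 1000 bp window makes common for TSSs this close. The strongest summit lay between the closest TSSs of the pair in 15 of 21 cases, the other 6 being mRpL2, mRpL11, mRpL23, mRpL33, mRpS21 and mRpS31. It was upstream of the member in 20 of 21 cases (95.2%), against 80.3% of all bound protein-coding genes, at a median of 247 bp, against 166 bp. The bound protein-coding genes include genes without a partner, so these sets are not alike. A summit between the TSSs of a pair is upstream of both. By annotation 15 of the summits were intergenic, 4 in a 5′ UTR and 2 in an intron.

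The summit lay nearer to the partner than to the mitochondrial ribosomal protein gene in 16 of 21 cases. In those 16 the median distance was 281 bp to the member and 126 bp to the partner. The 5 exceptions were mRpL4, mRpL23, mRpL41, mRpL47 and mRpS6, and at mRpL43 and mRpS26 a second summit lay nearest to the member. If only the gene with the nearest protein-coding TSS was counted for each summit, 7 of 73 members remained (9.59%, 4.72 to 18.5%), against 11.5% of all protein-coding genes. The ratio to the other protein-coding genes then fell to 0.830, so its direction turned. Among bound genes with a divergent partner, 7 of 21 members had the nearest TSS to a summit. The counts were 833 of 1460 for all protein-coding genes and 5 of 11 for respiratory chain subunit genes. Which of the genes in a pair the protein acts on cannot be told apart from summit positions.

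**Figure D3:**
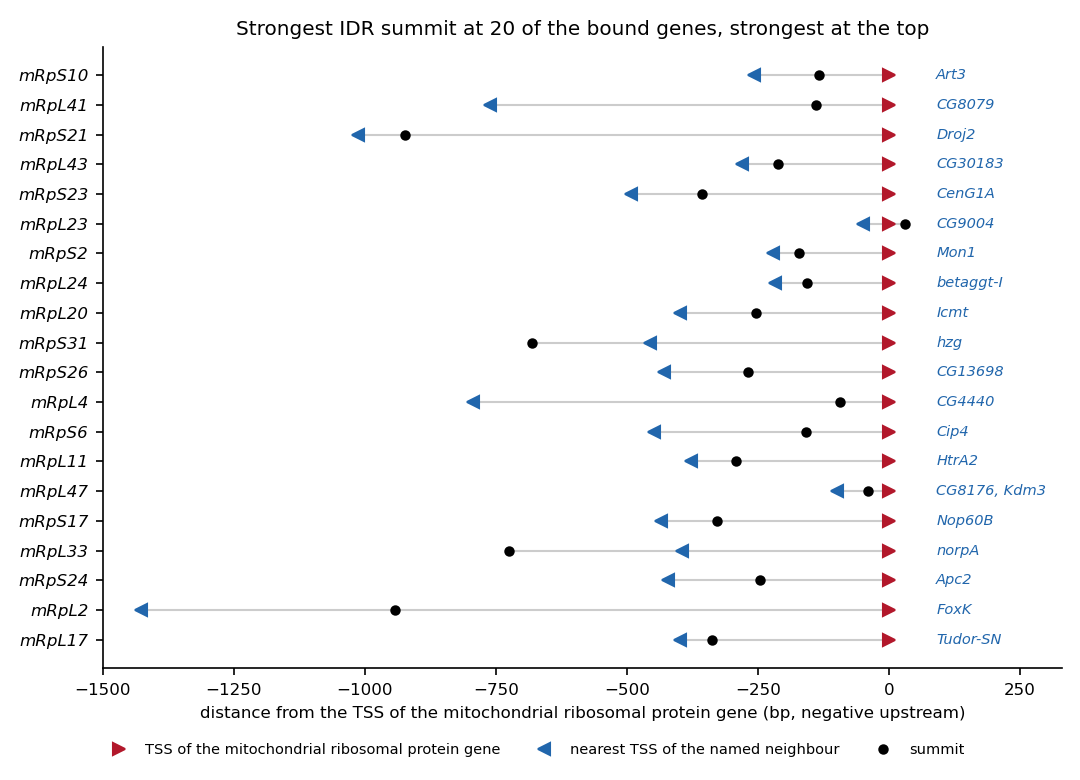
Position of the strongest IDR summit (black) at 20 of the 21 bound mitochondrial ribosomal protein genes (mRpL37 is not drawn), relative to their nearest TSS (red, at 0; upstream to the left, bp), with the TSS of the named neighbour that is nearest to the summit (blue). The strongest peaks are at the top. In 15 rows the black point is closer to the blue than to the red triangle, and it is right of the red triangle only at mRpL23.

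Setting like against like narrowed the difference. Among genes with a divergent partner, 21 of 58 members were bound (36.2%), against 28.9% of all protein-coding genes with one, and the ratio to the other genes fell to 1.26. This comparison was added after the data were seen. No interval is given for it, and whether a difference remained was not tested. Among genes without a partner, none of 15 members was bound, against 9.05% of all such protein-coding genes. A count of 0 of 15 allows a share of up to 20%. The arrangement and the share bound thus moved together, and the part of either in the other was not tested.

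**Figure D4:**
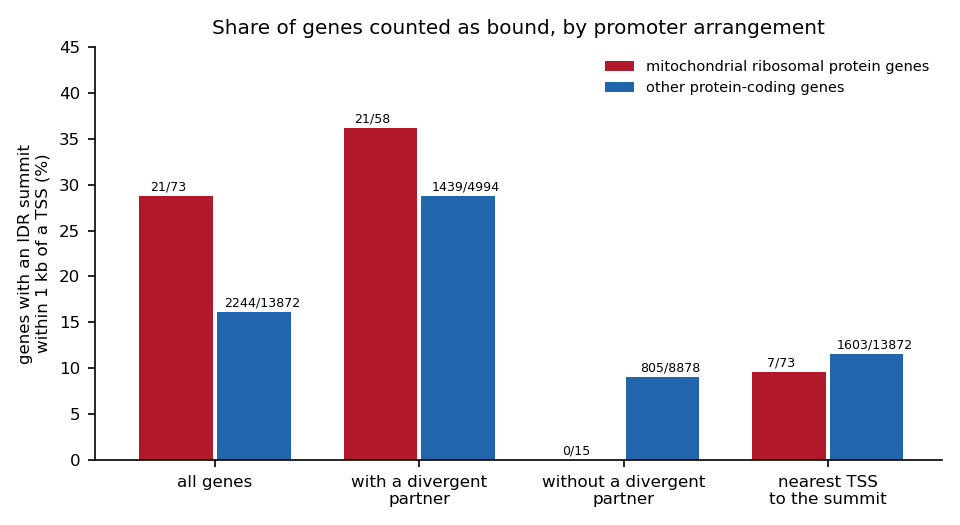
Percentage of genes whose TSS has an IDR summit inside 1000 bp, among mitochondrial ribosomal protein genes (red) and other protein-coding genes (blue), for all genes, for genes with and without a divergent partner, and when only the gene with the nearest TSS is counted. Numbers over the bars are bound genes of all genes. The red bar is higher in the first pair and in that with a partner, at 0 without a partner, and lower for the nearest TSS (7 of 73).

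The width of the window set how many members were counted. With a window of 250 bp, 12 members were bound (16.4%), against 11.4% of all protein-coding genes. With 500 bp, 17 were (23.3%), against 14.1%. With 2000 bp, 24 were (32.9%), against 20.0%, the additions being mRpL27 at 1241 bp, mRpL13 at 1468 bp and mRpL46 at 1963 bp. With 1 TSS per gene the 21 members were kept, against 14.7% of all protein-coding genes, and 67 of the 73 members have a single TSS.

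A few members were among the strongest peaks of all. Of the 250 highest-scoring pooled peaks, a cut chosen after the data were seen, 6 members had a summit within 1000 bp (8.22%, 3.82 to 16.8%), against 1.74% of all protein-coding genes. These were mRpS10, mRpL41, mRpS21, mRpL43, mRpS23 and mRpL23, which ranked between 40 and 131. Of the 92 cytosolic ribosomal protein genes 3 were in that set (3.26%, also above 1.74%), namely RpL7 (309), RpS27 (305) and RpL23A (293). In the IDR set 49 of these 92 genes (53.3%, 43.1 to 63.1%) were bound, against 16.2% of all protein-coding genes. Cytosolic ribosomal protein genes had the nearest TSS in 44 of 92 cases (47.8%), and mitochondrial ones in 7 of 73 (9.59%), against 11.5% of all protein-coding genes. In the 1499 highest-scoring IDR peaks 10 members were bound (13.7%), against 9.05% of all protein-coding genes, and the ratio to the other genes was 1.52, below that of the whole IDR set. The 2999 strongest peaks of replicate 4 alone gave 19 members, against 16.0% of all protein-coding genes, and those of replicate 3 alone gave 23, against 15.8%. Of the 21 members, 18 were kept with replicate 4 alone and 19 with replicate 3 alone.

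Below the IDR set, 44 members had a peak in the pooled list only, which holds 30000 peaks and background regions. Counting that whole list, 65 of 73 members (89.0%) had a summit within 1000 bp, against 59.8% of all protein-coding genes. The 44 scored from 18.5 to 71.3 with a median of 33.5, near the median of 32.8 over all protein-coding genes of this kind, and 34 had a peak in both replicates, 8 in a single replicate and 2, mRpL46 and mRpS34, in neither. Their summits were upstream in 34 cases, at a median distance of 162.5 bp. The counts by replicate and position have no share over all protein-coding genes beside them, so they are not read as particular to members.

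Of the 5 strongest of these, 4 lay just under the lowest IDR score of 72.5. mRpL51 scored 29.0 in replicate 3 and 44.6 in replicate 4, and 71.3 in the pooled list, with its summit 23 bp upstream of mRpL51 and 8 bp from Uba4, which encodes a ubiquitin-like protein activating enzyme. mRpL34 scored 49.7 in replicate 3 and 21.8 in replicate 4, and 69.1 when pooled, at 207 bp upstream, nearer to Dg, the dystroglycan gene. mRpS7 scored 37.2 in replicate 3 and 32.0 in replicate 4, and 67.5 when pooled, with its own TSS nearest at 161 bp and the cell cycle kinase gene Cdk1 at 239 bp. mRpL35 scored 40.5 in replicate 3 and 22.0 in replicate 4, and 65.3 when pooled, with the summit 14 bp from Mitofilin, which encodes a cristae organiser. These 4 shared the maximum −log10 q of 3.87 with all IDR peaks, while mRpL10 (57.6, 58 bp upstream), whose bacterial counterpart anchors the ribosomal stalk, had 3.09.

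No pooled peak lay within 1000 bp of 8 members: mRpL12, mRpL30, mRpL40, mRpL45, mRpS18A, mRpS28, mRpS33 and mRpS35. Having such a peak was more common in members (89.0%) than in all protein-coding genes (59.8%). mRpL12 is the counterpart of the bacterial stalk protein. Of these 8 only mRpL30, mRpS18A and mRpS28 have a divergent partner, which 79.5% of all members and 36.2% of all protein-coding genes have. Their nearest IDR summit was 2008 bp away at mRpL40 and 88393 bp away at mRpS18A. For mRpS5, with a pooled score of 21.3, it was 1441769 bp away.

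Other groups of mitochondrial genes gave lower shares than members, near the 16.2% of all protein-coding genes, which lies inside each interval below. Of 80 respiratory chain subunit genes 11 were bound (13.8%, 7.86 to 23.0%), led by ND-ASHI (138), ND-42 (131) and ND-MWFE (129). Of 22 genes for mitochondrial translation factors and organelle gene expression 3 were bound (13.6%, 4.75 to 33.3%): the protease gene Lon (368), the single-stranded DNA binding protein gene mtSSB (128) and mTerf5 (98.6). Of 15 mitochondrial aminoacyl-tRNA synthetase genes 2 were bound (13.3%, 3.74 to 37.9%), LeuRS-m (208) and ArgRS-m (88.1). All 3 intervals overlap that of the mitochondrial ribosomal protein genes. A divergent partner was less common there, at 52.5% of respiratory chain genes, 54.5% of organelle gene expression genes and 46.7% of synthetase genes, against 79.5% of members. Among genes with a partner, 11 of 42 respiratory chain (26.2%), 2 of 12 organelle gene expression (16.7%) and 2 of 7 synthetase genes (28.6%) were bound. That share was 36.2% of members with a partner and 28.9% of all protein-coding genes with one. As in members, no gene without a partner was bound among 38 respiratory chain and 8 synthetase genes, while 1 of 10 organelle gene expression genes without one was. The gene tko, which encodes the mitochondrial counterpart of bacterial S12, had a pooled peak of score 50.9 with its summit 7 bp upstream, below the IDR set. No pooled peak lay within 1000 bp of bonsai, which encodes that of S15.

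In the promoters of these genes the GAGAG letters known for Psq were less frequent than in all promoters, whereas the E-box CAGCTG was more frequent. Promoters were taken from 250 bp before to 50 bp after the 5′ end of the gene model, and searched on both strands. GAGAG was found in 12 of 73 members (16.4%), against 29.7% of all protein-coding promoters and 16.3% of cytosolic ribosomal protein promoters. By binding, GAGAG was in 6 of 21 bound members (28.6%), against 31.7% of all bound protein-coding genes, and in 6 of 52 members not bound (11.5%). Within 100 bp of the summit it was found at 6 of 21 members (28.6%). The share was 33.1% of all 2999 IDR summits and 31.3% of those within 1000 bp of a protein-coding TSS. GAGAGAG was found at 1 of 21 member summits, that of mRpL43, against 9.64% of all IDR summits. CAGCTG, in contrast, was found in 40 of 73 members (54.8%, 43.4 to 65.7%), against 17.7% of all protein-coding promoters. The DRE was found in 20.5% of members, against 9.36%, motif 1 in 11.0%, against 6.05%, CACGTG in 6.85%, against 4.20%, and TATAAA in 46.6%, against 45.8%.

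The CAGCTG sites are shown with 12 bases on each side, 5′ to 3′ on the gene's strand from the RefSeq dm6 genome, for the bound members that carry one, leaving out an arm whose sequence is not printed here. Capitals mark the site nearest to the TSS.

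mRpS2, chr2L:4850413-4850442, minus strand: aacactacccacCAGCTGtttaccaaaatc
mRpS6, chr3L:4364552-4364581, plus strand: ctttccttgcatCAGCTGttaacactatca
mRpS21, chr3R:13381790-13381819, minus strand: agtgatattcatCAGCTGtttagcagtaca
mRpS24, chr3R:24163508-24163537, minus strand: cgtcacgtcaatCAGCTGttgctggacgca
mRpL2, chr3L:11120845-11120874, plus strand: aacgccgcgtaaCAGCTGttttcagccgca
mRpL11, chr3R:14511821-14511850, plus strand: cagcaataccatCAGCTGttgctgcttctt
mRpL17, chr3L:264780-264809, plus strand: ataaatggtcgcCAGCTGttcggcgaatgt
mRpL23, chr3L:2373715-2373744, minus strand: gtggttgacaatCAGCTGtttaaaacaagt
mRpL24, chr2L:4945324-4945353, minus strand: ttcagttctcaaCAGCTGattgcaagccgc
mRpL33, chrX:4322207-4322236, minus strand: gataggcgcagtCAGCTGttcttcgttcct
mRpL47, chr3R:9515873-9515902, minus strand: ttgttattgcttCAGCTGttttgttcggtc

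The same site was present in members without any pooled peak nearby, of which 4 are shown.

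mRpS33, chr3R:16436566-16436595, minus strand: gcacttggaaatCAGCTGtcgcttgttttt
mRpS35, chr3L:2780875-2780904, plus strand: agtttctgtaaaCAGCTGattgcttgctat
mRpL40, chr3R:11407929-11407958, plus strand: cagcaacaaaaaCAGCTGttcgtacattac
mRpL45, chr3R:22618471-22618500, plus strand: aatcacgtttgcCAGCTGgtcgcgttagtg

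The sites lay close to the TSS. Among the 40 members with CAGCTG, the nearest site started at a median of 4 bp downstream of the TSS, and within 100 bp of it in 38 of 40, against 1641 of the 2423 other protein-coding genes with a site (67.7%). In the stretches shown it started 2 bp downstream of the TSS at mRpS21, 5 bp upstream at mRpL11 and 28 bp upstream at mRpL23. For these sites the TSS is the 5′ end of the gene model. The summit at mRpL23 was placed from another of its 3 TSSs, so its distance and that of the site do not share a start. Sites numbered 2 in 5 members: mRpL24, mRpL32, mRpL54, mRpS2 and mRpS6. At both mRpS2 and mRpL24, 1 site lay near the member's TSS and the other just past the TSS of the partner.

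CAGCTG was present in bound and in unbound members. It was found in 14 of 21 bound members (66.7%, 45.4 to 82.8%) and 26 of 52 members not bound (50%, 36.9 to 63.1%), with overlapping intervals. Of all bound protein-coding genes, 23.3% had it. Of members with the site 35.0% were bound, and of those without it 21.2%. Over all protein-coding genes these shares were 21.4% and 15.1%. Within 100 bp of the summit the site was found at 5 of 21 members (23.8%). The share was 10.4% of all IDR summits and 12.5% of those within 1000 bp of a protein-coding TSS. The site was found in both arrangements: it was in 53.5% of members with a divergent partner, against 22.0% of all protein-coding genes with one, and in 60% of members without a partner, against 15.2%.

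**Figure D5:**
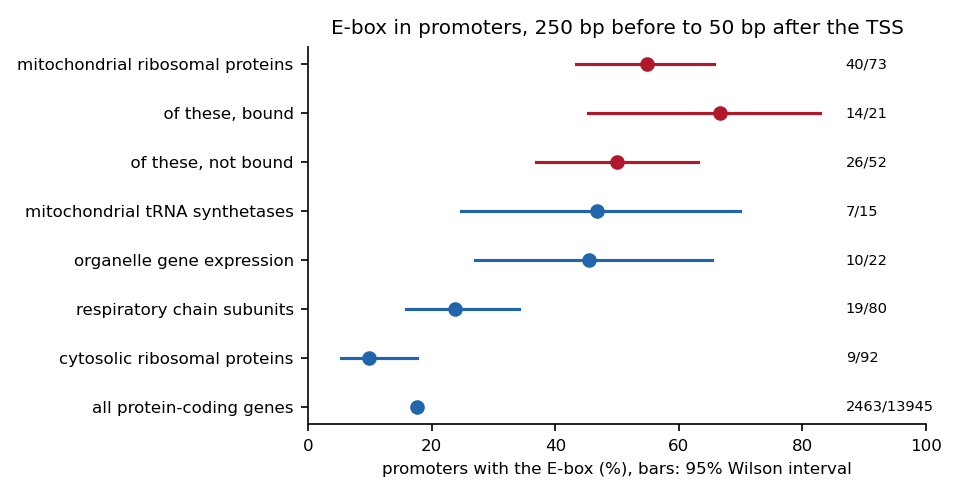
Percentage of promoters with the E-box searched, with 95% Wilson intervals, for mitochondrial ribosomal protein genes (red, all, bound and not bound) and for related gene groups and all protein-coding genes (blue). Numbers at the right are promoters with the site of all promoters. The red points lie at 50% or above, the tRNA synthetase and organelle gene expression groups at 46.7% and 45.5%, and all protein-coding genes at 17.7%.

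Other genes of mitochondrial gene expression also carried CAGCTG often. It was found in 7 of 15 mitochondrial aminoacyl-tRNA synthetase genes (46.7%, 24.8 to 69.9%), 10 of 22 genes for translation factors and organelle gene expression (45.5%, 26.9 to 65.3%), and both tko and bonsai. It was less frequent in respiratory chain subunit genes (19 of 80, 23.8%, 15.8 to 34.1%) and cytosolic ribosomal protein genes (9 of 92, 9.78%, 5.23 to 17.6%).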

How the data were processed

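Psq-GFP chromatin immunoprecipitation was analysed from peak lists of 2 replicates, their pool and an IDR selection. According to text files that the authors deposited, peaks and background were called on each replicate and on both pooled, against a control alignment, and the IDR list was derived from these. Aligner, caller, versions and IDR threshold are not stated in the sources used, and the control experiment was not analysed here. The scale of the deposited score (column 7) is not stated either, and the deposited −log10 q is capped, at 3.87 in all 2999 IDR peaks. The IDR peaks are pooled peaks with the same interval and summit. The lists hold no read numbers, so depth is unknown and gives no precision. Per the labels, chromatin was sheared to 200 to 800 bp.

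Summits were joined to TSSs of Ensembl release 115 (dm6, 1-based), and sequence came from the RefSeq dm6 genome. Python 3.11.15, pandas 2.3.3 and scipy 1.17.1 were used. Peaks overlapped at 1 bp or more. Named genes were all bound members and their neighbours, the 5 highest-scoring members below the IDR set, members without a pooled peak, tko and bonsai, and up to 3 bound genes of each related list. Other genes were named after their values were seen. The window was varied, as were the TSS choice, score cut, replicate list, nearest-gene rule and motif window. The members and lists were chosen with earlier results of these data known. The joins were tested on simulated peaks. All planted cases were recovered. Of 24 names for organelle gene expression, mEFG2 and ppr matched no gene symbol. Sequence on 2R and the neighbour of mRpL37 are not reported here.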

Additional observations from a re-analysis of the deposited data

How the results depend on the processing

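Other settings moved the count of bound mitochondrial ribosomal protein genes, 21 as reported, by more than 1.5 times in 5 cases: 12 with a window of 250 bp, 10 with the 1499 highest-scoring IDR peaks, 7 when only the gene with the nearest protein-coding TSS was counted, 65 with the whole pooled list, and 6 with the 250 highest-scoring pooled peaks, a setting chosen after seeing the data. Leaving out each replicate in turn gave 19 to 23 bound members and ratios of 1.64 to 1.998 to the other protein-coding genes, 1.78 as reported. The ratio was 0.830 under the nearest TSS, where its direction turned, and 4.83 with the 250 highest-scoring pooled peaks. It stayed between 1.26 and 1.96 in windows of 250, 500 and 2000 bp, with 1 TSS per gene, the 1499 highest-scoring peaks, the whole pooled list and genes with a divergent partner only, the last also chosen after seeing the data. The share of member summits found in both replicates was 81.0% with the strongest peaks of each replicate only, 100% as reported, and the same with an overlap of at least 50% of the pooled peak. Within 100 bp of the summit in place of the promoter, the share of bound members with the DRE was 4.76% (19.05% in promoters), with motif 1 0% (4.76%), with CAGCTG 23.8% (66.7%), with CACGTG 9.52% (4.76%) and with TATAAA 38.1% (52.4%). The cause was not tested, apart from the stricter or wider rule itself. Partners within 500 bp were found for 19 of the bound members, and counting TSSs of all gene types left 7 nearest. The median rank of the bound members' summits was 1524 in the pooled list, 1269 in replicate 3 and 1323 in replicate 4. No paired analysis was possible because there is 1 group and no second condition. Read depth is unknown, so a member without a peak was not detected in these lists, which does not show that Psq is absent there.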

Other observations

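The bases beside CAGCTG were also counted, a choice made after the sites had been seen. Of the 45 sites in promoters of mitochondrial ribosomal protein genes with 2 bases on each side inside the promoter, 24 (53.3%) were followed directly by TT on the gene's strand, against 23.2% of 2699 sites in other protein-coding promoters. With sites preceded by AA added, since the site reads the same on both strands, the counts were 28 of 45 (62.2%, 95% Wilson interval 47.6 to 74.9%) and 1075 of 2699 (39.8%, 38.0 to 41.7%). Sites in 1 promoter are not independent of each other. The divergent partners of the members carried CAGCTG in 22 of 58 promoters (37.9%, 26.6 to 50.8%), and because promoters of a pair can overlap, some of these are the same sites.

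Along the pooled ranking, the mitochondrial and the cytosolic ribosomal protein genes changed places. With the 500 strongest pooled peaks, 11.0% of the mitochondrial and 4.35% of the cytosolic genes had a summit within 1000 bp, against 3.33% of all protein-coding genes. With 1000 peaks the shares were 13.7% and 19.6%, against 6.36%, and with 5000 peaks 39.7% and 68.5%, against 24.0%. No test was made of these shares, which were computed after the data were seen. The genes mRpS10, mRpL41, mRpS21, mRpL43, mRpS23 and mRpL23, and then mRpS2 and mRpL24, made up the mitochondrial ones within the 500 strongest.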
